A study of Mus musculus with 24 samples.

Results

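The genes described here are 10 genes of the Notch pathway: the Notch receptors Notch1, Notch2 and Notch3, the ligands Dll1, Dll4 and Jag1, and the target or related repressors Hes1, Hes5, Hes6 and Hey1. These are 10 of 21887 protein-coding genes of the mouse reference, and all 10 were found. They were chosen by name, and every peak that touches the gene or the 5 kb on either side of it was recorded. The peaks come from CUT&RUN of retina from wild-type mice aged 2 days (P2) or 17 days (P17) after birth, a method in which an antibody directs a nuclease to a chromatin protein and the cut fragments are sequenced. The groups are antibodies to SOX8, SOX9, H3K4me3 and H3K27ac at each age, with 4 SOX8 libraries from 2 antibodies and 2 libraries for every other target, from 600000 nuclei per reaction. Strain, sex and pooling of animals are not given in the sources used here. There were also 2 IgG libraries at each age, not analysed here. The deposited data used are 8 peak lists, 1 per target and age. No list gives a value per library, so no number below has a replicate error and no test was possible.

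Notch receptors are cut when a Delta-like or Jagged ligand on a neighbouring cell binds them, and the freed inner part joins the DNA-binding protein RBPJ to switch on Hes and Hey genes. Hes and Hey proteins repress genes that drive cells to become neurons, so Notch activity keeps retinal progenitors dividing and favours Müller glia, the main glial cells of the retina, which express SOX8 and SOX9. H3K4me3 is a histone mark of promoters in use, whereas H3K27ac is found at enhancers in use as well.

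The RefSeq promoter table used here has a transcription start for 8 of the 10 genes, with 2 starts each for Dll1 and Hes6, and no entry was matched for Hes1 and Hey1. The 250 bases before the start are shown for the 6 genes whose start lay under a SOX8 or SOX9 peak, since these are the promoters at which the SOX peaks described below sit. Hes5 and Hes6 had a SOX peak over the start at both ages, Dll1 a SOX9 peak at both ages, and Notch1, Dll4 and Jag1 a SOX peak there at P2 and none at P17. Capitals mark 3 short motifs, read on both strands, which overlap nowhere in these windows: the RBPJ core TGGGAA, the SOX core ACAAT and the HES N-box CACNAG. For Dll1 and Hes6 the window before the outermost start is given. Sequences are RefSeq's, of build GRCm38.p6, 5′ to 3′ along the gene.
Hes5 (chr4:154960673-154960922, plus strand): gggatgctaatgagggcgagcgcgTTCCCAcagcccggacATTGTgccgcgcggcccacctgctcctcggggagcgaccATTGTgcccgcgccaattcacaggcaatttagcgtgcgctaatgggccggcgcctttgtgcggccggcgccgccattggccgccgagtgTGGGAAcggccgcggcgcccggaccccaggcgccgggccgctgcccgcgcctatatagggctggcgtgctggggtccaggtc
Hes6 (chr1:91414039-91414288, minus strand): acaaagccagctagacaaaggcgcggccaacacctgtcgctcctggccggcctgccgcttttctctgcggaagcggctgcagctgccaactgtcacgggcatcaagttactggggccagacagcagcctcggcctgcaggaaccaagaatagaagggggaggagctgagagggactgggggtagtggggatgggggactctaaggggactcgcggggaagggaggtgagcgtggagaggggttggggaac
Dll1 (chr17:15376933-15377182, minus strand): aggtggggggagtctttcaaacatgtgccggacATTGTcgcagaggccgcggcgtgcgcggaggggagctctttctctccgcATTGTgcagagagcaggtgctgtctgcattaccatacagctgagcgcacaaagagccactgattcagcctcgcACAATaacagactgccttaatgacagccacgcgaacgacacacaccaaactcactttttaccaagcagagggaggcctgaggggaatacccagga
Notch1 (chr2:26503823-26504072, minus strand): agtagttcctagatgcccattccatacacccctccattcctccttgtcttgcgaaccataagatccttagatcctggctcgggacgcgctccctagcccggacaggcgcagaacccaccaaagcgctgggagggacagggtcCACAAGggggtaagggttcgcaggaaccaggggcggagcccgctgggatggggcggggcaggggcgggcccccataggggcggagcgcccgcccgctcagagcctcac
Dll4 (chr2:119325534-119325783, plus strand): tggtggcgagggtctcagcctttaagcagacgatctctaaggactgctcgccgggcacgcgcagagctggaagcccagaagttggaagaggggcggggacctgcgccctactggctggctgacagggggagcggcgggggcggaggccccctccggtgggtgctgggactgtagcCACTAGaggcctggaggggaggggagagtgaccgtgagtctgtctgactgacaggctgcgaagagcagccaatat
Jag1 (chr2:137116521-137116770, minus strand): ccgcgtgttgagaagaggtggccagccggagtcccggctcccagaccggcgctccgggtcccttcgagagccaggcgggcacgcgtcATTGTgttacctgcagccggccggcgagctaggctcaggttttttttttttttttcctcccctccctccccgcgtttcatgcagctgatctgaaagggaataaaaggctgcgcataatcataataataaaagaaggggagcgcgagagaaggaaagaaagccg

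The RBPJ core was found in 1 of 10 start windows of the 8 genes, that of Hes5, and in 20.9% of 21263 windows of protein-coding genes. Hes5 held it at 226 and 82 bases before the start. The SOX core was in 3 of 10 windows, those of Hes5 (210 and 171 bases before the start), the outer Dll1 start (217, 168 and 95 bases) and Jag1 (163 bases), against 25.1% of all windows. The N-box was in 5 of 10 windows, those of Notch1, Notch2, Notch3, Dll4 and the inner start of Hes6, against 35.9%. GC content of the 10 windows ran from 56% to 72%, with a median of 55.6% over all windows. Each match is a stretch of letters in these 250 bases and shows no binding.

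At P2 all 10 genes had an H3K4me3 peak, 8 had a SOX9 peak and 6 a SOX8 peak. Over all protein-coding genes these shares were 49.3% for H3K4me3, 27.7% for SOX9 and 15.1% for SOX8. At P17, 6 of 10 had an H3K4me3 peak (50.9% of all genes), 4 a SOX9 peak (15.7%) and 3 a SOX8 peak (13%). H3K27ac peaks lay at 10 genes at P2 and 9 at P17, against 81.8% and 57% of all genes. None of the 10 had a peak at P17 in a target for which it had none at P2. For H3K4me3 and H3K27ac this was fixed, since all 10 had a P2 peak of each. Only the 4 genes without a P2 SOX8 peak and the 2 without a P2 SOX9 peak could gain 1. Over all genes this state was seen at 4.94% for SOX8, 4.35% for SOX9, 5% for H3K4me3 and 0.315% for H3K27ac. A 0 among so few genes therefore shows no trait of theirs. This 0 depends on the peaks used: with the lists of a target cut to equal numbers of their widest peaks, Hey1 had SOX9 and H3K27ac at P17 alone, and over RefSeq starts Jag1 had H3K27ac at P17 alone. Peaks at both ages lay at 3 of the 10 for SOX8 (8.08% of all genes), 4 for SOX9 (11.4%), 6 for H3K4me3 (45.9%) and 9 for H3K27ac (56.7%). The P2 and P17 SOX8 peaks overlapped at 2 of these 3 genes, Hes5 and Hes6, and not at Notch1. At Hes5 the P17 SOX8 peak lay outside the gene. H3K4me3 was present at P2 and absent at P17 at 4 of 10 genes, Notch1, Notch2, Notch3 and Dll4, against 3.4% of all genes and 6.91% of all genes with a P2 H3K4me3 peak. SOX9 was present only at P2 at 4 of the 8 genes, Notch1, Dll4, Jag1 and Hes1, against 16.4% of all genes and 58.9% of all genes with a P2 SOX9 peak. For SOX8 it was 3 of 6, Dll1, Hes1 and Hey1, against 7% of all genes and 46.4% of those with a P2 SOX8 peak. The SOX8 count depends on the peaks used: with the wider 50% of each list it was 5 of 6. The SOX shares among genes with a P2 peak thus lay near the background, and the H3K4me3 share of 4 in 10 lay above it, with no test of either.

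**Figure D1:**
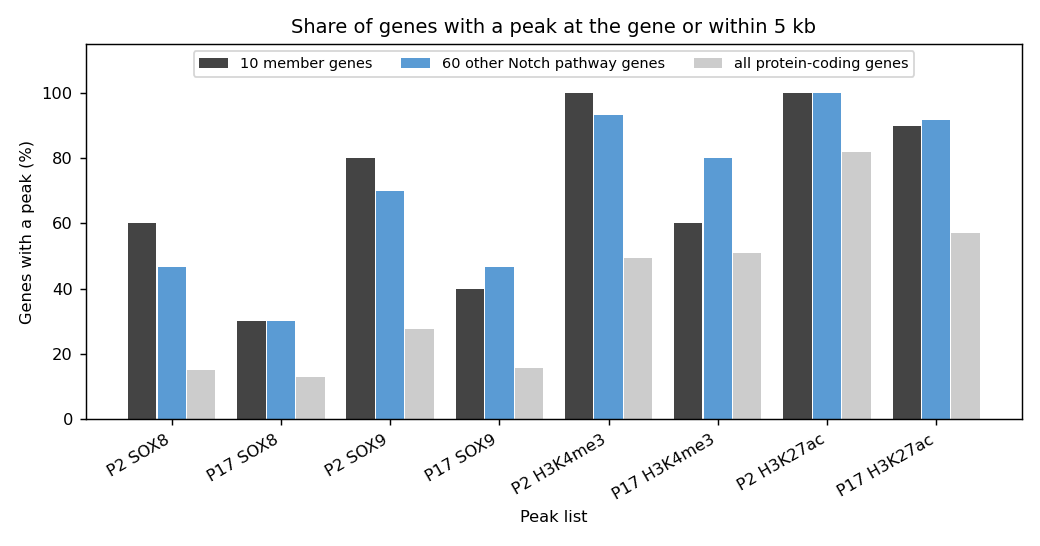
Bars give the percentage of genes with a peak at the gene or within 5 kb (y axis) in each of the 8 peak lists (x axis), for the 10 Notch pathway and Hes genes, 60 other Notch pathway genes and all 21887 protein-coding genes. Among the 10 genes the H3K4me3 bar is at 100% at P2 and 60% at P17, while it is near 50% at both ages over all genes.

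Counting only peaks that cover a RefSeq start, 8 of the 8 genes with a listed start had H3K4me3 at P2 (44.8% of 17492 genes), 6 had SOX9 (22.8%), 4 had SOX8 (12.2%) and 6 had H3K27ac (60.7%). At P17 these counts were 4 for H3K4me3 (46%), 3 for SOX9 (10.3%), 1 for SOX8 (8.4%) and 4 for H3K27ac (46.6%). The single P17 SOX8 peak over a start was that at Hes6.

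**Figure D2:**
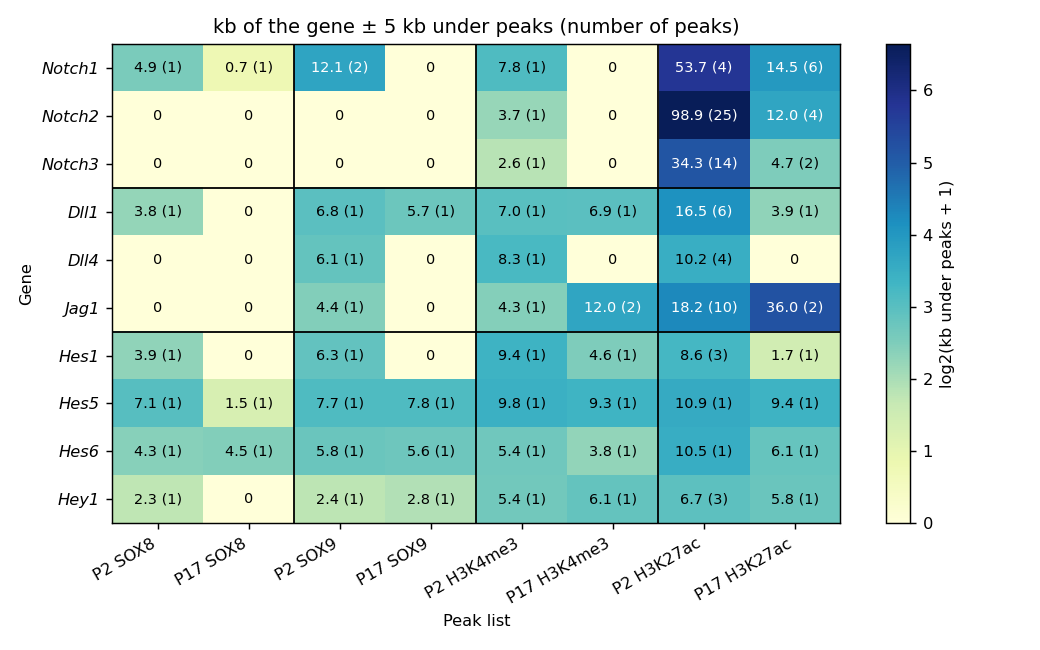
Each cell gives the kb of a gene and its 5 kb flanks that lie under peaks, with the number of peaks in parentheses, for 10 genes (rows) and 8 lists (columns), and the colour is log2(kb + 1). Hes5 and Hes6 are filled in every column, Notch2 and Notch3 are at 0 in the 4 SOX columns, and Dll4 is at 0 in the 4 P17 columns.

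Notch1, the receptor most studied in retinal progenitors, lies on chr2:26457902-26503822, on the minus strand. At P2 an H3K4me3 peak of 7778 bp ran from 3078 bp before the start to 4699 bp after it. A SOX9 peak of 7329 bp (chr2:26498810-26506138) and a SOX8 peak of 4927 bp (chr2:26499598-26504524) lay over the same start, with the SOX8 peak wholly inside the SOX9 peak. A further P2 SOX9 peak of 4813 bp (chr2:26484807-26489619) lay inside the gene, 14203 to 19015 bp after the start, with no SOX8 and no H3K4me3 peak on it. At P17 the start was covered by no peak of any list. The only P17 SOX peak was a SOX8 peak of 711 bp (chr2:26478519-26479229), 24593 to 25303 bp after the start. No more than 2.88% of P17 SOX8 peaks are as short, and it overlapped no peak of another P17 list. H3K27ac covered 53.7 kb of the 55921 bp window at P2, most of it in 1 peak of 45976 bp, and 14.5 kb at P17 in 6 peaks. One P17 H3K27ac peak, of 2229 bp, lay wholly inside the internal P2 SOX9 peak. Another, of 4265 bp (chr2:26499030-26503294), began 528 bp after the start and lay wholly inside the P2 SOX9 peak over the start. Notch1 thus had SOX8, SOX9 and H3K4me3 over its start at P2 alone, and H3K27ac in the gene, close to the start included, at both ages. Its pattern over the 8 lists was shared by 5 of 21887 genes, Notch1 included. This pattern rests on the short P17 SOX8 peak. With peaks of at least 1 kb, or with the wider 50% of each list, Notch1 had no P17 SOX8 peak.

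Notch2 (chr3:98013538-98150367, plus strand) and Notch3 (chr17:32120820-32166896, minus strand), the latter best known from the mural cells of blood vessels, had no SOX8 or SOX9 peak at either age. Of all protein-coding genes, 66.1% had a peak in none of the 4 SOX lists. Both had 1 H3K4me3 peak over the start at P2, of 3669 bp at Notch2 and 2564 bp at Notch3, and none at P17. These are modest widths: 54.3% and 13.3% of P2 H3K4me3 peaks are no wider. H3K27ac at Notch2 covered 98.9 kb in 25 peaks at P2 and 12 kb in 4 peaks at P17, none of them over the start. At Notch3 it covered 34.3 kb in 14 peaks at P2 and 4.71 kb in 2 peaks at P17. The P2 H3K27ac list is much longer than the P17 list (287845 against 29909 peaks), so these lengths cannot be compared between ages as amounts of the mark. The pattern of Notch2 and Notch3 was the same and was found at 165 genes (0.754%).

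Dll1 (chr17:15367354-15376932, minus strand), a Delta-like ligand of newborn neurons, was the ligand with SOX peaks at both ages. A P2 SOX8 peak of 3767 bp and a P2 SOX9 peak of 6823 bp both covered its 2 starts. At P17 a SOX9 peak of 5720 bp (chr17:15372633-15378352) covered the same starts and shared 5701 bp with the P2 SOX9 peak, and there was no SOX8 peak. The H3K4me3 peak measured 6991 bp at P2 and 6901 bp at P17, and the P17 peak lay wholly inside the P2 peak. H3K27ac at Dll1 covered 16.5 kb in 6 peaks at P2 and 3.9 kb in 1 peak over both starts at P17. Dll1 thus had SOX9, H3K4me3 and H3K27ac over its starts at both ages, and SOX8 at P2 alone.

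Dll4 (chr2:119325784-119335666, plus strand), a ligand used by retinal precursors and by the tip cells of growing vessels, had no peak in any P17 list. At P2 a SOX9 peak of 6448 bp (chr2:119320464-119326911) reached from 5320 bp before the start to 1127 bp after it, without a SOX8 peak. The P2 H3K4me3 peak of 8255 bp was as wide as or wider than 98% of its list, and 4 P2 H3K27ac peaks covered 10.2 kb. It was the 1 gene of the 10 with H3K27ac at P2 and none at P17, which held for 25.1% of all genes and 30.7% of those with a P2 H3K27ac peak. P2 SOX9 without P2 SOX8, as at Dll4 and Jag1, was found at 13.3% of genes, and the reverse, which none of the 10 showed, at 0.631%.

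Jag1 (chr2:137081451-137116520, minus strand), a Jagged ligand, had more of its length under H3K4me3 and H3K27ac peaks at P17 than at P2. Its P2 SOX9 peak of 4435 bp (chr2:137113370-137117804) covered the start, and no SOX peak was listed at P17. The H3K4me3 peak over the start measured 4328 bp at P2 and 4826 bp at P17. At P17 a further H3K4me3 peak of 7159 bp (chr2:137088542-137095700) lay inside the gene, 20820 to 27978 bp after the start, where the P2 list has none. H3K27ac covered 18.2 kb in 10 peaks at P2, none over the start, and 36 kb in 2 peaks of 21726 and 14243 bp at P17. The wider of these held all of the internal H3K4me3 peak, and the other covered the start. Jag1 was the 1 gene among the 10 with more kb under H3K27ac at P17 than at P2, although the P17 list holds fewer peaks. The SOX9 peak and the broad P17 marks at Jag1 are thus in lists of different ages.

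**Figure D3:**
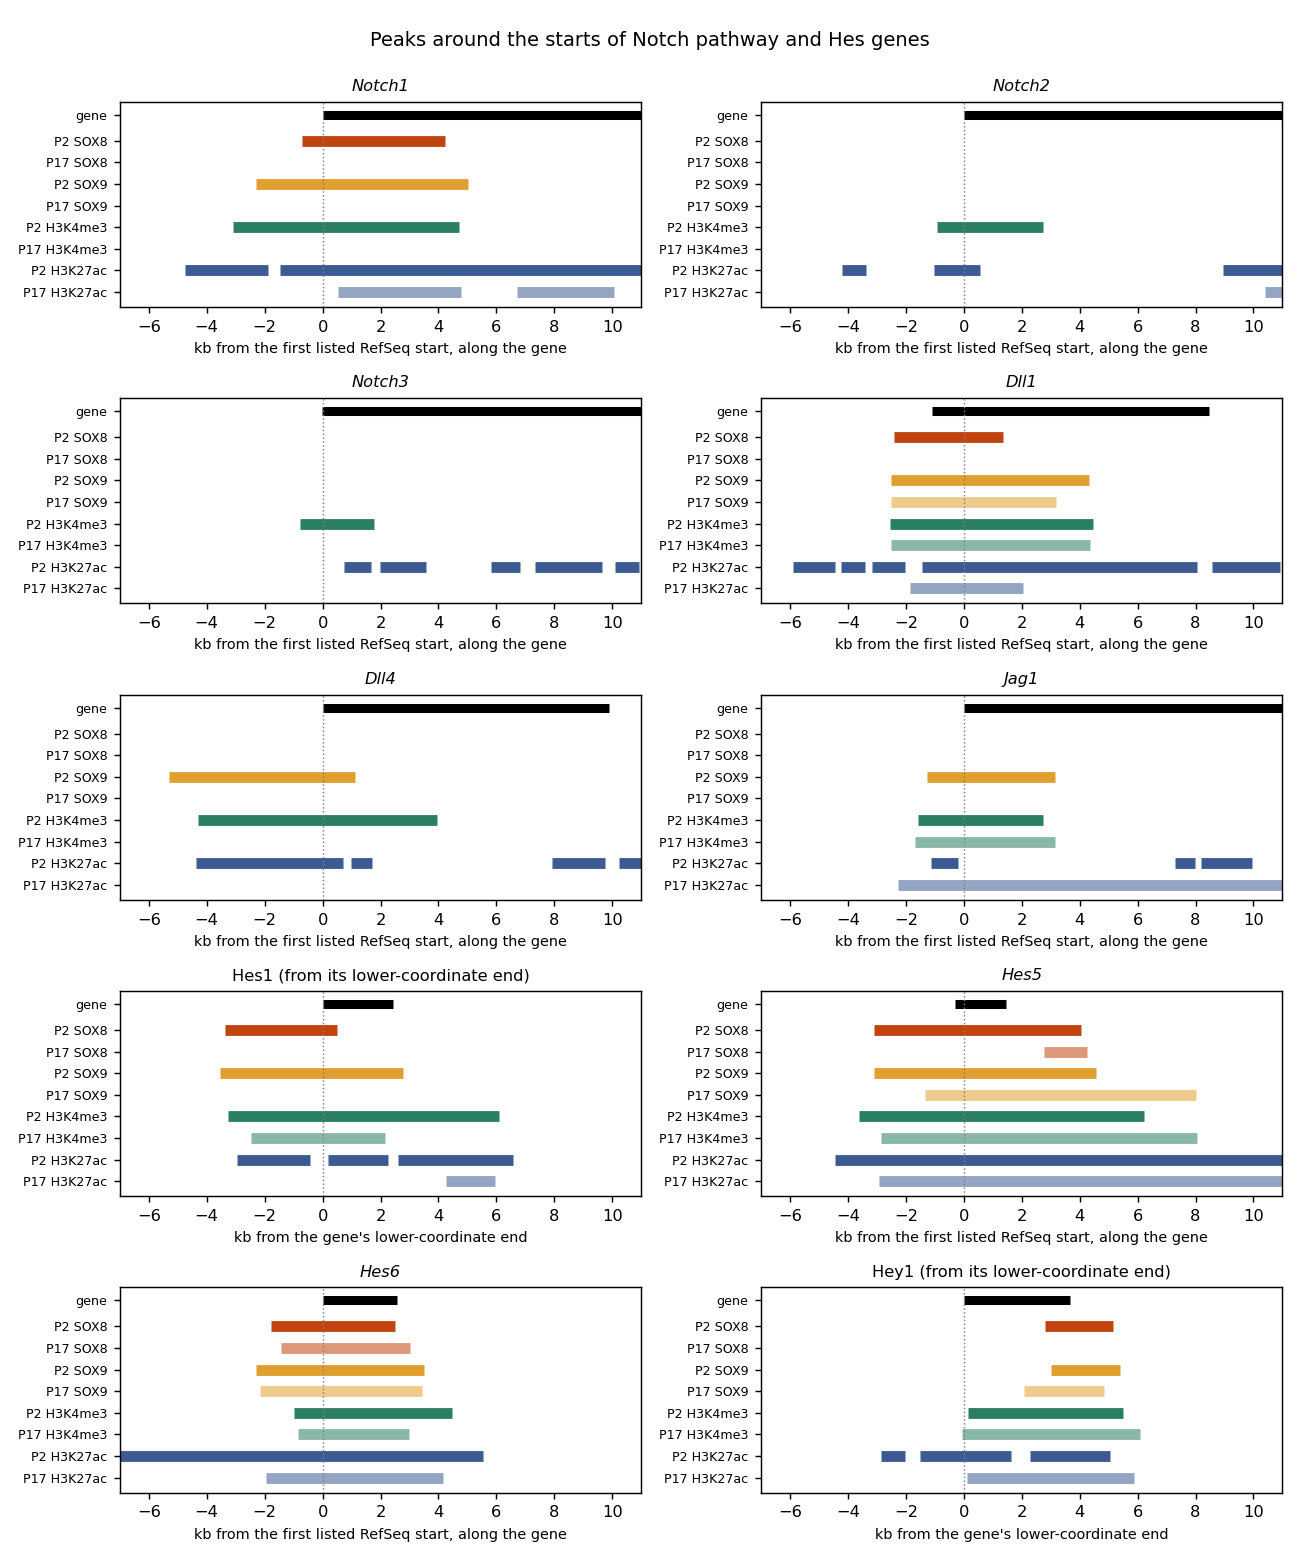
Each panel shows 1 gene (black bar) and its peaks in the 8 lists (coloured bars, paler at P17) against the distance in kb from its first listed RefSeq start, or from its lower-coordinate end for Hes1 and Hey1, and peaks beyond 7 kb before or 11 kb after that point are cut off. SOX8 and SOX9 bars lie over the start at Notch1, Dll1, Hes5 and Hes6 at P2, and the P17 SOX8 bar at Hes5 lies beyond the gene.

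Hes1, a repressor that Notch switches on and that keeps retinal progenitors from becoming neurons, lies on chr16:30065357-30067796. At P2 a SOX8 peak of 3880 bp (chr16:30061974-30065853) and a SOX9 peak of 6319 bp (chr16:30061830-30068148) covered its lower-coordinate end, and the SOX9 peak covered the whole gene. The H3K4me3 peak measured 9366 bp at P2 and 4630 bp at P17, and the P17 peak lay wholly inside the P2 peak. H3K27ac covered 8.61 kb in 3 peaks at P2 and 1.69 kb in 1 peak at P17, beyond the gene's higher-coordinate end. No SOX peak lay at Hes1 at P17, and all 4630 bp of its P17 H3K4me3 peak lay within the span of the P2 SOX9 peak.

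Hes5, the Notch target whose promoter holds both RBPJ cores shown above, lies on chr4:154960626-154962372, on the plus strand. It had peaks in all 8 lists, as did 6.32% of genes. At P2 a SOX8 peak of 7140 bp (chr4:154957818-154964957) lay wholly inside a SOX9 peak of 7697 bp (chr4:154957805-154965501), and both covered the gene. The P17 SOX9 peak of 9342 bp (chr4:154959596-154968937) covered the gene and reached 8014 bp past the start. The P17 SOX8 peak of 1492 bp (chr4:154963689-154965180) did not touch Hes5: it began 2766 bp after the start and covered position 154964123, the start of the neighbouring gene Pank4. With no flanks, Hes5 therefore has no P17 SOX8 peak. H3K4me3 measured 9838 bp at P2 and 10894 bp at P17, and the P17 H3K27ac peak ran for 71505 bp (chr4:154957995-155029499) across Pank4 and Plch2. All SOX and H3K4me3 peaks recorded at Hes5 also touched Pank4, so the peaks of these genes cannot be told apart here.

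Hes6, which counteracts Hes1 and promotes neuronal differentiation, lies on chr1:91411483-91414038, on the minus strand, and also had peaks in all 8 lists. The SOX8 peak measured 4305 bp at P2 and 4460 bp at P17, with 3953 bp in common. The SOX9 peak measured 5782 bp at P2 and 5570 bp at P17, and the P17 peak lay wholly inside the P2 peak. All 4 SOX peaks covered both Hes6 starts, and among the 10 genes no other with a listed start had all 4. The share of all genes with all 4 was not counted. P17 SOX8 alone lay over a start at 8.4% of all genes with a listed start. The H3K4me3 peak was 5443 bp at P2 and 3818 bp at P17, and the H3K27ac peak 14635 bp and 6101 bp. The SOX9 peaks reached the end of the neighbouring gene Per2, and the SOX8 peaks did not.

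Hey1, a Hes-related repressor that Notch also activates, lies on chr3:8663359-8667038. Its SOX peaks all sat on its higher-coordinate end: 2340 bp (SOX8) and 2398 bp (SOX9) at P2, and 2764 bp (SOX9, chr3:8665446-8668209) at P17. The SOX9 peaks were short for their lists, with 37.3% of peaks no wider at P2 and 10.3% at P17. For the P2 SOX8 peak this was 56.7%. There was no P17 SOX8 peak. H3K4me3 was 5366 bp wide at P2 and 6145 bp at P17, and the P17 H3K27ac peak measured 5765 bp. A predicted protein-coding gene, LOC115489673, overlaps this end of Hey1, and all 3 SOX peaks touched it. Hey1 and Dll1 thus had the same pattern, every list but P17 SOX8, found at 403 genes (1.84%).

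Most P2 SOX peaks at these genes were among the widest of their lists. Of the 8 genes with a P2 SOX9 peak, 7 had one in the widest 10% of that list (at least 4188 bp), against 10.2% of all genes with such a peak. Hey1 was the exception, with a SOX9 peak that 37.3% of the list does not exceed. For P2 SOX8 it was 5 of 6 (at least 3299 bp), against 10.4%, and Hes5 at 7140 bp was as wide as or wider than 99.8% of the list. For P2 H3K4me3 it was 5 of 10, Notch1, Dll1, Dll4, Hes1 and Hes5, against 12.1%. At P17 the widest 10% held 1 of the 4 SOX9 genes, Hes5 (13.7% of all genes with a peak), 0 of the 3 SOX8 genes (12.9%) and 3 of the 6 H3K4me3 genes, Dll1, Jag1 and Hes5 (12.3%). For H3K27ac it was 9 of 10 genes at P2 (48.3%) and 2 of 9 at P17, Jag1 and Hes5 (23.9%). The P17 SOX9 list has wider peaks, with a median of 5336 bp against 2668 bp at P2. The SOX9 peak at Hes6, nearly the same length at both ages, therefore moved from 97.2% to 54.5% in this ranking.

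**Figure D4:**
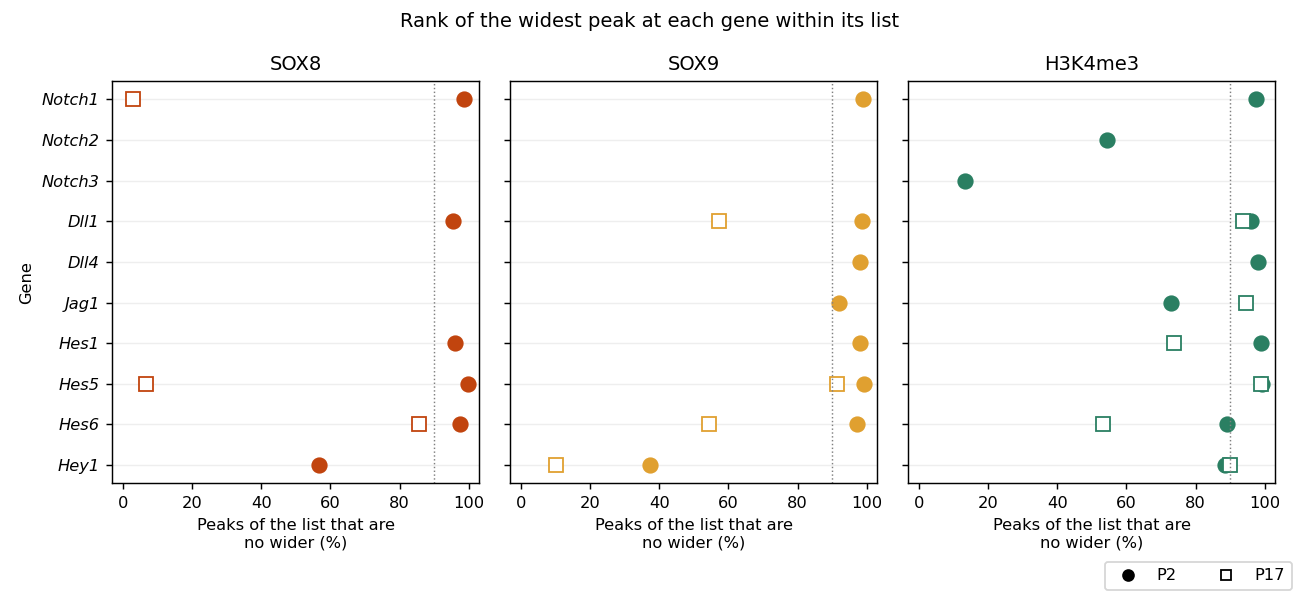
Points give, for the widest peak at each gene, the percentage of peaks in its list that are no wider (x axis), by gene (y axis), with filled circles for P2 and open squares for P17 in panels for SOX8, SOX9 and H3K4me3. A dotted line marks 90%, and all P2 SOX9 circles but that of Hey1, at 37.3%, lie to its right.

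Most SOX8 peaks at these genes lay on SOX9 peaks, as in the whole SOX8 lists, while several SOX9 peaks lay apart from SOX8. All 6 P2 SOX8 peaks overlapped a P2 SOX9 peak (94.5% of the whole SOX8 list did, and 14.5% of all genes had both), and 5 of the 6 lay wholly inside one (53.3% of the list). Of the 9 P2 SOX9 peaks, 6 overlapped SOX8 (45.5% of the list), and the other 3 were the internal peak at Notch1 and the peaks at Dll4 and Jag1. An H3K4me3 peak lay under 6 of 6 SOX8 peaks at P2 (90.1% of the list) and under 8 of 9 SOX9 peaks (79.8%), the internal Notch1 peak being the exception. All P2 SOX peaks here overlapped H3K27ac, which 99.7% of SOX8 and 99.4% of SOX9 peaks did. At P17 the 4 SOX9 peaks all overlapped both marks (66.5% of the list for H3K4me3, 84.3% for H3K27ac), and 2 of them overlapped SOX8, at Hes5 and Hes6 (47.5%). Of the 3 P17 SOX8 peaks, that at Notch1 overlapped neither SOX9 nor a mark, and the other 2 overlapped all 3. Of the P17 SOX8 list, 59% overlaps SOX9, 69.7% H3K4me3 and 84% H3K27ac. The 2 of 3 P17 SOX8 peaks at these genes with a mark are near the list's share for H3K4me3. They are too few to tell from its share for either mark. With 3 to 9 peaks per list no more can be read from these shares.

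H3K4me3 and SOX9 counts at progenitor, Müller glia and rod markers changed with age in the same lists. H3K4me3 counts at endothelial, pericyte and microglia markers did not. Of 10 progenitor markers, 10 had an H3K4me3 peak at P2 and 3 at P17 (49.3% and 50.9% of all genes). A SOX9 peak lay at 10 at P2 and 2 at P17 (27.7% and 15.7%). Of 10 Müller glia markers, 8 and 4 had H3K4me3, and 6 and 1 had SOX9. Of 10 rod markers, 6 and 10 had H3K4me3, and 2 and 10 had SOX9. Of 10 endothelial markers 1, Kdr, had H3K4me3 at each age, of 10 pericyte markers 0, and of 10 microglia markers 1, Aif1, at each age. None of 10 genes of other organs had H3K4me3 at either age. H3K27ac peaks lay at 10 progenitor, 10 Müller glia and 10 rod markers at P2, and at 4, 7 and 10 at P17. They lay at 10 endothelial, 9 pericyte and 9 microglia markers at P2, and at 3, 1 and 1 at P17. Of the 10 genes of other organs, 6 had one at P2 and 1 at P17. Over all genes these shares were 81.8% at P2 and 57% at P17. The H3K27ac counts at the Notch pathway genes come from the same lists. The part of these cell types in the peaks at Notch pathway genes was not tested, and in whole retina fewer cells of a type and less of a mark or factor per cell cannot be told apart.

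The rest of the pathway was described with 60 genes grouped by role, of which 33 have part of another protein-coding gene in their window (4 of the 10 genes above do). Of the 60, 28 had a P2 SOX8 peak (15.1% of all genes) and 42 a P2 SOX9 peak (27.7%). At P17, 18 had a SOX8 peak (13%) and 28 a SOX9 peak (15.7%). H3K4me3 lay at 56 at P2 (49.3%) and 48 at P17 (50.9%). SOX9 was present at P2 alone at 19 genes, at both ages at 23 and at P17 alone at 5, against 16.4%, 11.4% and 4.35% of all genes. Of the 42 with a P2 SOX9 peak, 19 thus had none at P17. Over all genes with a P2 SOX9 peak this share was 58.9%, so the 60 genes showed no excess of it.

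The proteins of the nuclear complex, which carry out or block transcription at Notch targets, had SOX peaks at both ages at most of their 15 genes. SOX9 peaks lay at 12 genes at P2 and 11 at P17 (27.7% and 15.7% of all genes). SOX8 peaks lay at 11 and 10 (15.1% and 13%), and H3K4me3 at 14 and 15 (49.3% and 50.9%). Peaks at both ages lay at 11 genes for SOX9 (11.4% of all genes) and 10 for SOX8 (8.08%). Rbpj, the DNA-binding partner of Notch, had 1 peak in each SOX list. At P2 these measured 3335 bp (SOX8) and 3430 bp (SOX9), and at P17 3096 bp (SOX8) and 3786 bp (SOX9). Tle1, Tle2 and Tle3, Groucho-type corepressors that Hes proteins recruit, had a peak in all 4 SOX lists, and Tle4 in all but P17 SOX8. Ep300, Ctbp1, Spen and Maml3 also had all 4, and Maml1 had SOX9 at both ages.

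The other target genes had fewer SOX peaks listed at P17. They were Hes2, Hes3, Hes7, Hey2, Heyl, Nrarp, Sox9, Id1, Id3 and Ccnd1. Of 10, SOX9 lay at 8 at P2 and 3 at P17, SOX8 at 6 and 1, and H3K4me3 at 9 and 4. Over all genes these shares were 27.7% and 15.7% for SOX9, 15.1% and 13% for SOX8, and 49.3% and 50.9% for H3K4me3. SOX9 was at P2 alone at 6 of the 8, where 58.9% of all genes with a P2 SOX9 peak had none at P17. These 6 were Hey2, Nrarp, Sox9, Id1, Id3 and Ccnd1, the last also among the progenitor markers above. Ccnd1, a cyclin of dividing cells, had P2 SOX9 peaks of up to 12346 bp and P2 H3K4me3 of 15933 bp, and no SOX or H3K4me3 peak at P17. Id3 had the same pattern, with 6467 bp of P2 SOX9. Hes3 and Hes7 had SOX9 and H3K4me3 at both ages. Hes2 had SOX9 at P17 alone, with 7743 bp and no H3K4me3 at either age.

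Among the 6 other receptors and ligands, Notch4 and Jag2 had SOX9 at both ages (11.4% of all genes), Dll3 and Dner at P2 alone (16.4%). The Notch4 window also holds Gpsm3 and Pbx2, and that of Jag2 holds Nudt14. Of 10 genes that cut the receptor, 7 had SOX9 at P2 (27.7% of all genes) and 4 at P17 (15.7%). H3K4me3 lay at 9 of them at both ages (45.9%). Adam10, which makes the outer cut, had SOX9 peaks of 1794 bp at P2 and 2566 bp at P17. Psen2 of the inner cutting complex had 2930 bp and 4042 bp. Of 5 genes that put sugars on the receptor, 2 had SOX9 at each age and 1 had SOX8 at each age (15.1% and 13% of all genes). H3K4me3 lay at 5 at P2 (49.3%) and 3 at P17 (50.9%). Pofut1 had SOX9 at both ages, Rfng had SOX9 and Mfng SOX8 at P17 alone. Lfng had P2 SOX9 of up to 7104 bp, P2 SOX8 of 5751 bp and neither a SOX nor an H3K4me3 peak at P17. Of 14 genes of trafficking and turnover, 9 had SOX9 at P2 and 6 at P17 (27.7% and 15.7% of all genes). H3K4me3 lay at 14 and 13 (49.3% and 50.9%). Numbl, related to the Notch inhibitor Numb, had SOX9 peaks of 4789 bp at P2 and 9796 bp at P17, and Dtx1 had SOX8 and SOX9 at both ages.

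Genes were also ranked by how near their log2(bases under peaks + 1) over the 8 lists came to the median of the 10 genes, by Euclidean distance. That median has no P17 SOX peak, since 3 of the 10 genes had one for SOX8 and 4 for SOX9. The nearest 5 protein-coding genes outside the 10 were Gm52006 (0.82), Rfx7 (0.902), Stmn1 (0.903), Gm42163 (0.925) and Cdt1 (0.933). Of the 10, Hes1 was nearest to the median, at 2.05, and Notch2 farthest, at 21.1, where the median protein-coding gene was at 21.7. The 10 genes therefore do not share 1 pattern.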

How the data were processed

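CUT&RUN was done on wild-type mouse retina in 24 libraries, of which 20 had a target antibody. The deposited data used were 8 peak lists, 1 per age and target, with no word on which libraries each draws on. Each list gives the start and end of each peak in bp on GRCm38, per the submitters' processing notes, which also name Bowtie2 and SEACR without their role. The peak threshold, the use of IgG and the way libraries were combined are not given in the sources used here. The deposited score was 0 in every peak, so the lists carry no height, and the depth is unknown. Depth and threshold would affect the number and widths of peaks.

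Gene ends, starts and promoter letters came from RefSeq tables of GRCm38.p6. These give no exons, so peaks were not assigned to exons, introns or UTRs. A gene had a peak when a peak touched the gene or 5 kb on either side by 1 bp or more. Widths were ranked within a list. Calls were made over 21887 protein-coding genes with Python 3.11.15 and pandas 2.3.3, and the procedure was tested on simulated peaks. All 10 genes are described. Of the other pathway genes, those eligible to be named had a P17 SOX peak or 1 of the 2 widest P2 SOX9 peaks of their role. Dll3, Dner and the rest of the other target genes were named after their values were seen. The genes and the lists were chosen with earlier results of these data known. The alternatives were flanks of 0, 2 and 10 kb, at least 50% of the peak inside the window and peaks of at least 1 kb. Further ones were equal numbers of widest peaks over the ages, the wider 50% of each list and an overlap of 50% of the shorter peak. The last was a background of genes within the range of the members' lengths. Peaks over a RefSeq start were an alternative chosen after seeing the data.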

Additional observations from a re-analysis of the deposited data

How the results depend on the processing

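Of the alternative counts, 201 stayed within 1.5 times the reported value and 15 did not. With the wider 50% of each list, 1 gene had a P17 SOX8 peak in place of 3, 5 genes in place of 3 had SOX8 at P2 alone, 1 in place of 3 had it at both ages, and 2 in place of 1 had H3K27ac at P2 alone. H3K27ac at P2 alone was also found at 2 genes with no flanks and with 50% of the peak inside the window. Counting only peaks over a RefSeq start, which is possible for 8 of the 10 genes, 6 had P2 H3K27ac, 4 had P17 H3K27ac, 1 had P17 SOX8, 1 had SOX8 at both ages, and H3K27ac lay at P2 alone at 3 genes, at both ages at 3 in place of 9 and at P17 alone at 1 in place of 0. With equal numbers of widest peaks, 1 gene in place of 0 had SOX9 at P17 alone, and likewise 1 had H3K27ac. For single genes, 525 peak numbers stayed within 1.5 times and 35 did not. Where a gene had no peak in a list, only flanks of 10 kb could add any. Part of the 525 was therefore fixed in advance. Among the 17929 genes of 1747 to 136830 bp, the range of the members' lengths, the background was somewhat higher. It was 29.8% for P2 SOX9 and 53.5% for P2 H3K4me3. This range is wide and does not match genes to the members by length. No paired analysis was possible because the lists hold no values per library, and for the same reason no library could be left out. Unknown depth limits every absence named here: a gene without a peak is one at which no peak was listed.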
